A study of Saccharomyces cerevisiae with 20 samples.

Results

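The 6 chaperone genes described here are from budding yeast and were followed across a swap of the RNA helicase genes DED1 and DBP1 and across growth at 37C and 30C. They are the small heat shock proteins HSP26 (YBR072W) and HSP42 (YDR171W), the disaggregases HSP104 (YLL026W) and HSP78 (YDR258C), and the Hsp40 co-chaperones YDJ1 (YNL064C) and SIS1 (YNL007C). They were taken by their systematic names and make up 6 of the 6679 genes in the deposited table. The data are 10 mRNA libraries and 10 ribosome footprint libraries of SK1 cells. The 4 groups were DBP1 cells at 37C (cultures 1 and 2), DBP1 cells at 30C (cultures 1, 2 and 3), DED1 cells at 37C (cultures 1 and 2) and DED1 cells at 30C (cultures 1, 2 and 3). DBP1 cells had the DBP1 coding sequence in place of DED1 under the DED1 regulatory regions, and DED1 cells had DED1 there. All cells grew in YEPD with aeration, were harvested at an optical density of 0.6, and were held in 100 uM cycloheximide for 1 min beforehand. The labels give 1 strain number per genotype and do not say whether the numbered samples came from separately started cultures, so p-values measure only the spread between these samples. The study was set up to ask what separates these helicases and how that depends on temperature.

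Ded1 and Dbp1 are paralogous DEAD-box RNA helicases that act in translation initiation. Small heat shock proteins bind unfolding proteins and hold them in deposits that can later be taken apart. Hsp104 in the cytosol and Hsp78 in the mitochondrial matrix are ring-shaped ATPases that pull polypeptides out of aggregates, working with Hsp70. Hsp40 proteins, also called J-proteins, bring clients to Hsp70 and stimulate its ATPase. The transcription factor Hsf1 drives many of these genes in yeast, and Msn2 and Msn4 drive part of them in general stress.

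The libraries held 3940000 to 9690000 reads for mRNA and 4820000 to 9390000 reads for footprints, as recovered from the steps of the table's values. Values are RPKM, which scale reads by gene length and by the library's own depth, so they give each gene's share of its library. A change in total RNA or footprints per cell cannot be seen in them. DED1 was at 0.0765 to 3.19 RPKM of mRNA in the DBP1 libraries and 40.9 to 54.2 RPKM in the DED1 libraries. DBP1 was at 98.3 to 130.1 RPKM in the DBP1 libraries and 3.64 to 6.50 RPKM in the DED1 libraries, so both genes went with the labels. The 12 meiosis genes used to check for vegetative growth ranged from 0.195 to 18.6 RPKM and summed to 55.0 to 87.8 RPKM per mRNA library.

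The cultures of 1 group stood apart from each other. In DBP1 cells at 37C, culture 2 had more mRNA than culture 1 by 3.90-fold for HSP42, 2.98-fold for SIS1, 2.92-fold for HSP78, 2.83-fold for HSP104 and 1.96-fold for YDJ1, but by 1.11-fold for HSP26. Of 5454 genes tested in mRNA, between 10 and 51 had a difference at least as large and in the same direction as each of the first 5, against 1820 for HSP26. Footprints from the same cultures were higher in culture 2 by 5.66-fold for HSP42, 2.95-fold for SIS1, 2.55-fold for HSP78, 2.0-fold for HSP104 and 1.72-fold for YDJ1, and by 1.12-fold for HSP26. The DED1 cultures at 37C lay closer together, with ratios of culture 2 to culture 1 between 0.656 and 1.06 in mRNA. Nothing in the labels sets either DBP1 culture apart, so both were kept. Values without each are given for many results that rest on them, but not for all. A DBP1 37C value given alone may thus still depend on which culture is kept.

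**Figure D1:**
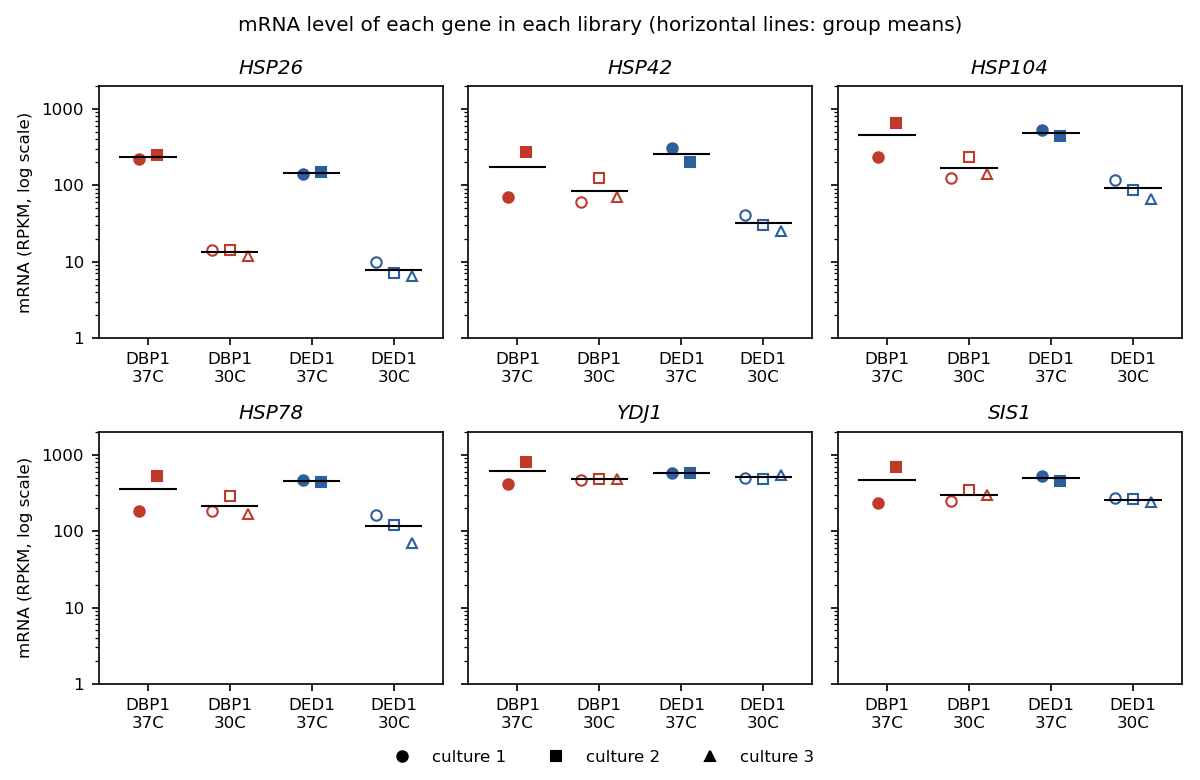
mRNA level (RPKM, log axis) of the 6 genes in each of the 10 mRNA libraries, by strain and temperature, with the group mean as a line and the culture number as the marker shape. HSP26 separates cleanly by temperature in both strains, while for the other 5 genes DBP1 37C culture 1 (filled circle) lies well below culture 2 (filled square) and among or near the DBP1 30C cultures.

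HSP26, the heat-activated small Hsp of the cytosol, showed the largest temperature difference of the 6 genes. In DBP1 cells it had 221.6 and 246.1 RPKM of mRNA at 37C, against 14.0, 14.3 and 12.0 RPKM at 30C. In DED1 cells it had 139.4 and 147.9 RPKM at 37C, against 9.78, 7.11 and 6.49 RPKM at 30C. No 37C library overlapped a 30C library, and within each temperature every DBP1 library lay above every DED1 library. How many of all genes had temperature groups apart was not counted, for HSP26 or the genes below. The log2 difference between 37C and 30C was 4.02 ± 0.15 (standard error) in DBP1 cells (adjusted p = 1.6e-07, limma) and 4.06 ± 0.15 in DED1 cells (adjusted p = 1.47e-07), which is 16.3-fold and 16.7-fold on the scale of RPKM + 1. The temperature effect in DBP1 cells minus that in DED1 cells was -0.03 ± 0.21 (adjusted p = 0.945).

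Ribosome footprints on HSP26 also rose at 37C in both strains. They were at 185.4 and 207.7 RPKM at 37C and at 5.75, 2.44 and 2.84 RPKM at 30C in DBP1 cells. In DED1 cells they were at 105.6 and 125.6 RPKM at 37C and at 3.82, 2.46 and 1.59 RPKM at 30C. The 30C values rest on few reads, 31, 8 and 8 in DBP1 cells and 21, 11 and 6 in DED1 cells, and 6 reads have an exact Poisson 95% interval of 2.20 to 13.1 that covers counting error only. HSP26 passed the filter on low values, a mean of 5 RPKM or more, in footprints only through its 37C libraries. The log2 difference between 37C and 30C was 5.46 ± 0.30 in DBP1 cells (adjusted p = 1.35e-06) and 5.05 ± 0.30 in DED1 cells (adjusted p = 1.05e-05).

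HSP42, the other small Hsp, which sorts misfolded proteins into cytosolic deposits, rose in DED1 cells at 37C. Its mRNA there was at 306.9 and 201.2 RPKM, against 41.1, 30.0 and 25.3 RPKM at 30C, a log2 difference of 2.94 ± 0.49 (adjusted p = 0.00107, limma). In DBP1 cells it had 70.1 and 273.4 RPKM at 37C and 60.7, 122.8 and 69.35 RPKM at 30C. The DBP1 groups overlapped, because culture 1 at 37C lay within the range of the 30C cultures, and the log2 difference was 0.78 ± 0.49 (adjusted p = 0.212). Without culture 1 it was 1.76 (adjusted p = 0.0097), and without culture 2 it was -0.19 (adjusted p = 0.734).

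Footprints on HSP42 also rose in DED1 cells, and its DBP1 groups again overlapped. The footprints were at 43.4 and 245.8 RPKM at 37C and at 43.6, 79.1 and 49.0 RPKM at 30C in DBP1 cells, so that culture 1 at 37C had the lowest value of the 5. In DED1 cells they were at 251.9 and 192.8 RPKM at 37C and at 30.4, 20.2 and 13.8 RPKM at 30C. The log2 difference was 3.37 ± 0.60 in DED1 cells (adjusted p = 0.00142), against 0.90 ± 0.60 in DBP1 cells (adjusted p = 0.255).

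HSP104, the cytosolic disaggregase, was called higher at 37C in both strains. DBP1 cells had 234.6 and 664.0 RPKM of mRNA at 37C, against 125.3, 237.0 and 141.3 RPKM at 30C. DED1 cells had 527.3 and 440.1 RPKM at 37C, against 119.0, 87.4 and 67.1 RPKM at 30C. The DED1 groups were far apart, while DBP1 37C culture 1 fell just under the highest DBP1 30C culture. The log2 difference was 1.29 ± 0.40 in DBP1 cells (adjusted p = 0.0271) and 2.43 ± 0.40 in DED1 cells (adjusted p = 0.00109). The DBP1 value was 2.03 without culture 1 (adjusted p = 0.00377) and 0.54 without culture 2 (adjusted p = 0.285), which ended the call. The DBP1 call also ended under median-of-ratios scaling, at 1.12 (adjusted p = 0.0505), without DBP1 30C culture 1, at 1.10 (adjusted p = 0.0791), and without DBP1 30C culture 3, at 1.19 (adjusted p = 0.0689).

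Footprints on HSP104 did not overlap between temperatures in either strain, but the share of all genes with temperature groups apart was not counted. DBP1 cells had 401.1 and 802.0 RPKM at 37C and 121.7, 252.4 and 142.6 RPKM at 30C, a log2 difference of 1.79 ± 0.36 (adjusted p = 0.00374). DED1 cells had 618.1 and 517.7 RPKM at 37C and 114.6, 80.0 and 65.8 RPKM at 30C, a log2 difference of 2.73 ± 0.36 (adjusted p = 0.000295). The call in DBP1 cells also passed without culture 1 and without culture 2.

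HSP78, which does the same work inside mitochondria, had 182.1 and 531.0 RPKM of mRNA at 37C in DBP1 cells, against 182.0, 290.3 and 166.5 RPKM at 30C. In DED1 cells it had 472.6 and 441.0 RPKM at 37C, against 161.4, 121.9 and 70.1 RPKM at 30C. It rose in DED1 cells, by 2.03 ± 0.44 on the log2 scale (adjusted p = 0.00375). In DBP1 cells the groups overlapped and the log2 difference was 0.59 ± 0.44 (adjusted p = 0.289). Without culture 1 the DBP1 value was 1.36 (adjusted p = 0.0314), and without culture 2 it was -0.18 (adjusted p = 0.767). Footprints on HSP78 were at 144.7 and 368.5 RPKM at 37C and at 128.8, 211.7 and 126.4 RPKM at 30C in DBP1 cells, a log2 difference of 0.61 ± 0.41 (adjusted p = 0.254). In DED1 cells they were at 355.7 and 323.7 RPKM at 37C and at 117.3, 78.8 and 53.6 RPKM at 30C, a log2 difference of 2.09 ± 0.41 (adjusted p = 0.00234). The temperature groups overlapped in DBP1 cells and not in DED1 cells, where the share of all genes with groups apart was not counted.

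**Figure D2:**
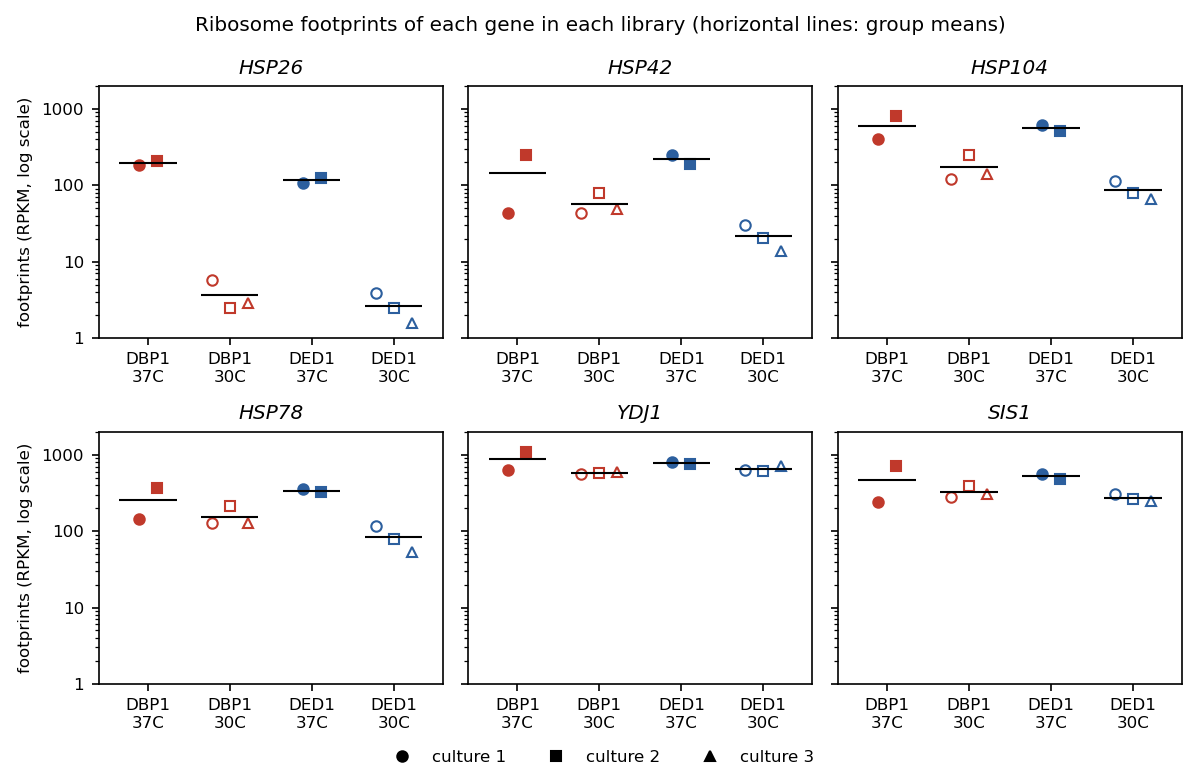
Ribosome footprints (RPKM, log axis) of the 6 genes in each of the 10 footprint libraries, drawn as for mRNA. HSP26 lies between 1.59 and 5.75 RPKM at 30C and above 105 RPKM at 37C, and the gap between the DBP1 37C cultures is seen again for the other 5 genes.

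The Hsp40 genes were abundant at both temperatures and moved less. YDJ1, the main Hsp40 partner of the Ssa Hsp70 proteins, had 413.1 and 808.6 RPKM of mRNA at 37C in DBP1 cells, against 474.6, 482.8 and 479.3 RPKM at 30C. In DED1 cells it had 573.1 and 575.0 RPKM at 37C, against 491.2, 486.5 and 545.6 RPKM at 30C. The DBP1 37C cultures thus lay on either side of all DBP1 30C cultures. The log2 difference between 37C and 30C was 0.27 ± 0.21 in DBP1 cells (adjusted p = 0.309) and 0.18 ± 0.21 in DED1 cells (adjusted p = 0.487). The DED1 value turned to -0.09 when libraries were scaled by the median of ratios.

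Footprints on YDJ1 were at 640.1 and 1102 RPKM at 37C and at 558.0, 585.0 and 591.3 RPKM at 30C in DBP1 cells. In DED1 cells they were at 799.6 and 765.0 RPKM at 37C and at 642.6, 617.8 and 706.9 RPKM at 30C. Neither strain's groups overlapped, but the share of all genes whose temperature groups lay apart was not counted. The log2 difference passed the test in DBP1 cells, at 0.54 ± 0.18 (adjusted p = 0.0364), and did not in DED1 cells, at 0.26 ± 0.18 (adjusted p = 0.247). The spread is shared by all groups, and the DED1 value, still 0.26, was called when either DBP1 37C culture was left out. The temperature effect in DBP1 cells minus that in DED1 cells was 0.28 ± 0.25 (adjusted p = 0.471), so the strains were not set apart. Without DBP1 37C culture 2 the DBP1 value was 0.15 (adjusted p = 0.297), and the call was lost. It was also lost under median-of-ratios scaling, at 0.46 (adjusted p = 0.0862), without any 1 of the DBP1 30C cultures, at 0.51 to 0.56 (adjusted p = 0.068 to 0.0846), and without DED1 30C culture 2, at 0.54 (adjusted p = 0.0504).

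SIS1, an essential Hsp40 that in yeast also helps to hold Hsf1 in check, had 232.3 and 691.0 RPKM of mRNA at 37C in DBP1 cells, against 249.5, 343.2 and 294.9 RPKM at 30C. In DED1 cells it had 528.3 and 455.1 RPKM at 37C, against 274.5, 260.2 and 244.0 RPKM at 30C. The DED1 groups did not overlap, and DBP1 37C culture 1 was the lowest of the 5 DBP1 libraries. The log2 difference was 0.45 ± 0.34 in DBP1 cells (adjusted p = 0.3) and 0.92 ± 0.34 in DED1 cells (adjusted p = 0.0419). The DED1 call lies close to the threshold and was lost under 10 of the 17 alternative settings, among them median-of-ratios scaling, where the log2 difference was 0.65 (adjusted p = 0.141). Footprints on SIS1 were at 240.2 and 709.5 RPKM at 37C and at 281.3, 388.4 and 307.8 RPKM at 30C in DBP1 cells, a log2 difference of 0.35 ± 0.35 (adjusted p = 0.436). In DED1 cells they were at 569.3 and 484.0 RPKM at 37C and at 304.8, 266.0 and 249.8 RPKM at 30C, a log2 difference of 0.94 ± 0.35 (adjusted p = 0.0445), a call lost under 12 of the 17 settings. The DBP1 groups again overlapped, and the DED1 groups did not, where the share of all genes with groups apart was not counted.

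Counted together, 5 of the 6 genes rose in mRNA between 30C and 37C in DED1 cells, all but YDJ1, and 2 of 6 rose in DBP1 cells, HSP26 and HSP104. These counts stand beside a broad response, since 43.1% of all genes tested in mRNA were called higher at 37C in DED1 cells and 30.0% in DBP1 cells. The median log2 difference of all genes was 0.26 in DED1 cells and 0.18 in DBP1 cells, against medians of 2.23 and 0.68 for the 6 genes. With libraries scaled by the median of ratios, which moves the median of all genes to about 0, the shares called higher were 17.0% in DED1 cells and 13.1% in DBP1 cells, and the counts of the 6 genes were 4 and 1. In footprints, 5 of 6 rose in DED1 cells, where 38.9% of genes were called higher, and 3 of 6 in DBP1 cells, where 21.2% were. Under median-of-ratios scaling those shares were 20.1% and 15.2%, and the counts 4 and 2. All these footprint counts hold HSP26, which passed the filter on low values there only through its 37C libraries.

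The DBP1 counts turned on which 37C culture was kept. Without culture 1, 6 of 6 genes were called higher at 37C in mRNA, beside 21.8% of all genes, and 6 of 6 in footprints, beside 13.8%. Without culture 2, HSP26 alone was called in mRNA, beside 15.0% of all genes, and HSP26 and HSP104 in footprints, beside 12.9%. In both cases the remaining culture was assumed to vary like the other groups. The footprint counts again hold HSP26, which passed the filter there only through its 37C libraries.

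**Figure D3:**
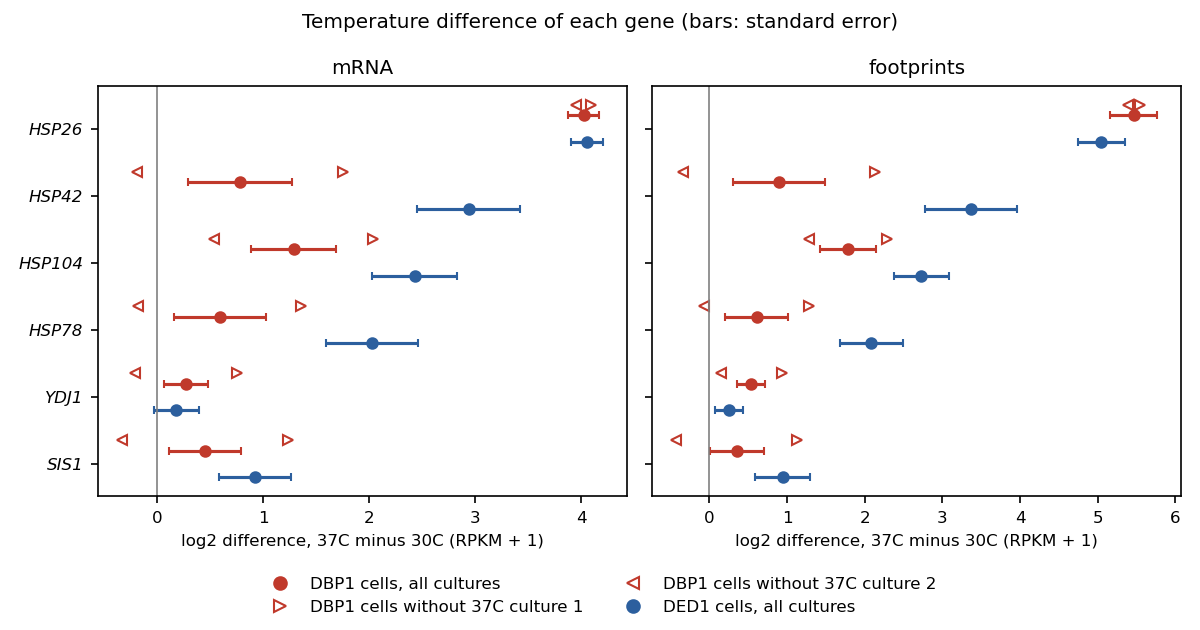
log2 difference between 37C and 30C, on the scale of RPKM + 1, for mRNA (left) and footprints (right). Filled circles with standard errors use all cultures, in DBP1 cells (red) and DED1 cells (blue), and open triangles give the DBP1 value without 37C culture 1 or culture 2. The triangles of HSP42, HSP78 and SIS1, and of YDJ1 in mRNA, fall on both sides of 0, and those of HSP26 nearly coincide.

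Whether the strains responded differently to temperature was tested directly, as the temperature effect in DBP1 cells minus that in DED1 cells. None of the 6 genes passed in mRNA, where 5.06% of genes were called lower, or in footprints, where 10.0% were. Called higher were 9 of 5454 genes in mRNA and 95 of 4986 in footprints. Without DED1 37C culture 1 the genes called in either direction were 90 in mRNA, against 285 with all cultures, and 205 in footprints, against 596. At an unadjusted p under 0.05, 1291 of 5454 genes passed in mRNA and 1494 of 4986 in footprints. The values furthest from 0 were those of HSP42, at -2.16 ± 0.69 in mRNA (adjusted p = 0.0955) and -2.47 ± 0.84 in footprints (adjusted p = 0.0823), and of HSP78, at -1.44 ± 0.62 (adjusted p = 0.193) and -1.48 ± 0.57 (adjusted p = 0.118). Without DBP1 37C culture 2, HSP42, HSP104, HSP78 and SIS1 were called lower in mRNA, beside 4.42% of genes, with -3.13 for HSP42 (adjusted p = 0.0121). In footprints the same setting called HSP42, HSP78 and SIS1 lower, beside 6.0% of genes, with -3.71 for HSP42 (adjusted p = 0.00433). Without culture 1 the only member called was YDJ1, in the other direction, at 0.58 in mRNA (adjusted p = 0.0483), beside 0.0918% of genes, and 0.67 in footprints (adjusted p = 0.017), beside 0.622%.

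The helicase swap was next compared at each temperature. At 30C, HSP26 mRNA was higher in DBP1 cells by 0.73 ± 0.13 on the log2 scale, or 1.66-fold (adjusted p = 0.00833), and in 3 of 3 DBP1 cultures it lay above every DED1 culture. It was the only one of the 6 genes to pass, beside 8.03% of all genes called higher. HSP42, HSP104 and HSP78 were also higher in every DBP1 culture than in every DED1 culture at 30C, in mRNA and in footprints, with the nearest values in mRNA being those of HSP78, at 166.5 RPKM in DBP1 cells and 161.4 RPKM in DED1 cells. With HSP26 in mRNA, that makes 4 of 6 genes in mRNA, beside 20.7% of all genes tested with groups apart in that direction, and 3 of 6 in footprints, beside 23.5%. The log2 differences of HSP42, HSP104 and HSP78 did not pass in mRNA, at 1.32 ± 0.44 for HSP42 (adjusted p = 0.0917), 0.86 ± 0.36 for HSP104 (adjusted p = 0.172) and 0.88 ± 0.39 for HSP78 (adjusted p = 0.188). No member passed in footprints, beside 10.4% of genes called higher, with 1.39 ± 0.53 for HSP42 (adjusted p = 0.112) and 0.35 ± 0.27 for HSP26 (adjusted p = 0.408). At an unadjusted p under 0.05, 1544 of 4986 genes passed there.

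The spread behind these tests is shared by the 4 groups, so the gap between the DBP1 37C cultures enters the 30C comparison. Without culture 1 of DBP1 37C, HSP42 was called higher in DBP1 cells at 30C in mRNA (adjusted p = 0.0164), beside 7.97% of genes. In footprints HSP42 (adjusted p = 0.0144) and HSP104 (adjusted p = 0.0485) were called, beside 10.7%. Leaving out culture 2 gave the same members, beside 8.04% and 10.7%. YDJ1 lay lower in every DBP1 culture than in every DED1 culture at 30C, in mRNA, as did 10.0% of all genes, and in footprints, as did 13.2%. Its mRNA was at 474.6 to 482.8 RPKM in DBP1 cells and 486.5 to 545.6 RPKM in DED1 cells, with a log2 difference of -0.08 ± 0.19 (adjusted p = 0.829).

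At 37C none of the 6 genes differed between the strains by the test, in mRNA, where 0.0550% of genes were called, or in footprints, where 0.963% were, 48 genes with all cultures and 2 without DED1 37C culture 2. At an unadjusted p under 0.05, 576 of 5454 genes passed in mRNA and 822 of 4986 in footprints. HSP26 was the 1 gene of 6 whose groups did not overlap there, in mRNA and in footprints, where 13.5% of all genes lay higher in both DBP1 cultures than in both DED1 cultures in each assay. It had a log2 difference of 0.70 ± 0.16 in mRNA (adjusted p = 0.139) and 0.76 ± 0.33 in footprints (adjusted p = 0.28). For the other 5 genes the DBP1 cultures lay on either side of both DED1 cultures in mRNA, except for HSP42. Its culture 2, at 273.4 RPKM, lay between the DED1 values of 306.9 and 201.2 RPKM. Over the alternative settings the mRNA log2 differences of these 5 genes fell on both sides of 0. They ranged from -1.81 to 0.14 for HSP42, -1.035 to 0.46 for HSP104 and -1.32 to 0.22 for HSP78. For YDJ1 the range was -0.47 to 0.49, and for SIS1 -1.075 to 0.49. The DBP1 37C and DBP1 30C libraries enter both the temperature and the strain comparisons, so these values are not independent of each other.

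Translation efficiency, taken as footprint RPKM over mRNA RPKM in the same culture, differed most between temperatures for HSP26. Its 30C values rest on 6 to 31 footprint reads per library, and it entered the test only through its 37C footprints. That entry favours a rise. HSP26 efficiency was 0.837 and 0.844 at 37C in DBP1 cells, against 0.409, 0.170 and 0.237 at 30C. In DED1 cells it was 0.757 and 0.850 at 37C, against 0.391, 0.346 and 0.245 at 30C. No 37C culture overlapped a 30C culture. The share of all genes with efficiency apart between temperatures was not counted, for HSP26 or the genes below. In the mean of DBP1 cells at 30C the efficiency of HSP26 exceeded that of 5.15% of the genes tested, and at 37C that of 69.8%. In DED1 cells these shares were 65.4% at 37C and 9.65% at 30C. The log2 difference was 1.44 ± 0.36 in DBP1 cells (adjusted p = 0.07) and 0.99 ± 0.36 in DED1 cells (adjusted p = 0.256), so it did not pass when mRNA and footprint libraries were treated as unpaired.

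The same culture's mRNA and footprint libraries deviated together. With each culture as a block the efficiency of HSP26 was called higher at 37C in DBP1 cells (adjusted p = 0.0049) and in DED1 cells (adjusted p = 0.0257). The block left the log2 differences as they were. The 30C efficiencies of HSP26 rest on 6 to 31 footprint reads per library, and the gene entered the efficiency test only through its 37C footprints. That entry favours a rise, so no conclusion is drawn from its call. Over the alternative settings its log2 difference ranged from 0.86 to 1.71 in DBP1 cells and from 0.44 to 1.28 in DED1 cells. The block also called HSP104 higher in DBP1 cells, at 0.50 (adjusted p = 0.0251), and YDJ1, at 0.27 (adjusted p = 0.0427). With HSP26, which entered only through its 37C footprints, that makes 3 of 6 genes in DBP1 cells, beside 0.964% of genes called higher. In DED1 cells HSP26 alone makes 1 of 6, beside 2.83%. No conclusion is drawn from these counts, since HSP26 is part of both. Without the block 0 of 6 were called, beside 1.02% and 0.985% of genes called in either direction, with 598 and 594 of 4977 genes at an unadjusted p under 0.05.

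HSP104 efficiency was 1.71 and 1.21 at 37C in DBP1 cells, against 0.971, 1.06 and 1.01 at 30C, and the highest value came from culture 1, whose HSP104 mRNA was low. In DED1 cells it was 1.17 and 1.18 at 37C, against 0.963, 0.916 and 0.980 at 30C, with no overlap. YDJ1 efficiency was 1.55 and 1.36 at 37C in DBP1 cells and 1.18, 1.21 and 1.23 at 30C. SIS1 efficiency lay between 1.02 and 1.13 in all 10 cultures, and that of HSP78 between 0.646 and 0.795. HSP42 efficiency was 0.620 and 0.899 at 37C and 0.644 to 0.718 at 30C in DBP1 cells, and 0.821 and 0.958 at 37C and 0.545 to 0.740 at 30C in DED1 cells. The strains were not called different for any of the 6 genes at 30C, beside 0.0402% of genes, or at 37C, beside 0.0201%. The same held for the difference between the temperature effects, where 0% of genes were called. At an unadjusted p under 0.05, 153, 109 and 113 of 4977 genes passed in those comparisons.

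**Figure D4:**
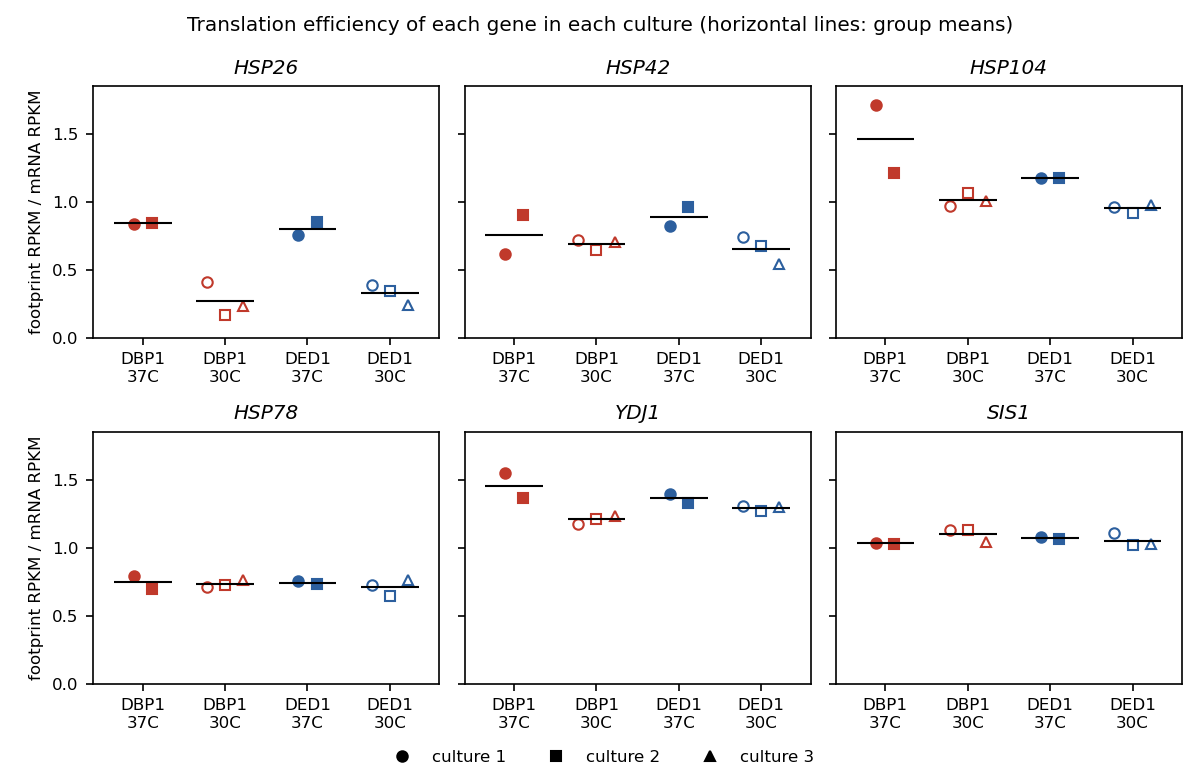
Translation efficiency (footprint RPKM over mRNA RPKM) of the 6 genes in each of the 10 cultures, by strain and temperature, with group means as lines. HSP26 lies between 0.170 and 0.409 at 30C and between 0.757 and 0.850 at 37C, while SIS1 and HSP78 keep nearly the same value in every culture.

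RPKM is per length, so levels can be ordered across genes. At 30C the order of mRNA levels was the same in both strains, YDJ1, SIS1, HSP78, HSP104, HSP42 and HSP26. In DED1 cells at 30C the mean levels were 507.8 RPKM for YDJ1, 259.6 for SIS1, 117.8 for HSP78, 91.2 for HSP104, 32.1 for HSP42 and 7.79 for HSP26, and only the ranges of HSP78 and HSP104 overlapped. In DBP1 cells at 30C they were 478.9, 295.9, 213.0, 167.9, 84.3 and 13.5 RPKM in the same gene order, where SIS1 overlapped HSP78 and HSP78 overlapped HSP104. At 37C, HSP104 passed HSP78. DED1 cells at 37C had 574.0 RPKM of YDJ1, 491.7 of SIS1, 483.7 of HSP104, 456.8 of HSP78, 254.0 of HSP42 and 143.6 of HSP26, with overlap between SIS1 and HSP104 and between HSP104 and HSP78. In DBP1 cells at 37C every neighbouring pair overlapped, and HSP26, at a mean of 233.8 RPKM, stood above HSP42, at 171.7 RPKM. In footprints at 30C the last place of HSP26 was lower still, at 3.67 ± 1.81 RPKM in DBP1 cells and 2.63 ± 1.12 RPKM in DED1 cells (SD, n = 3 each).

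Within groups, several of the genes were high or low in the same cultures. DBP1 30C culture 2 had the highest mRNA of its group for all 6 genes, by 0.61 log2 units over the group mean for HSP42, 0.55 for HSP104, 0.49 for HSP78 and 0.23 for SIS1, but by 0.01 for YDJ1. In DED1 cells at 30C, culture 1 was highest and culture 3 lowest for HSP26, HSP42, HSP104, HSP78 and SIS1, with deviations of 0.53 and -0.66 for HSP78. Footprints of HSP42, HSP104, HSP78 and SIS1 deviated in the same direction as their mRNA in these 3 cultures. HSP26 footprints did so in DED1 cells, while in DBP1 cells at 30C culture 1 had the highest value, on 31 reads.

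**Figure D5:**
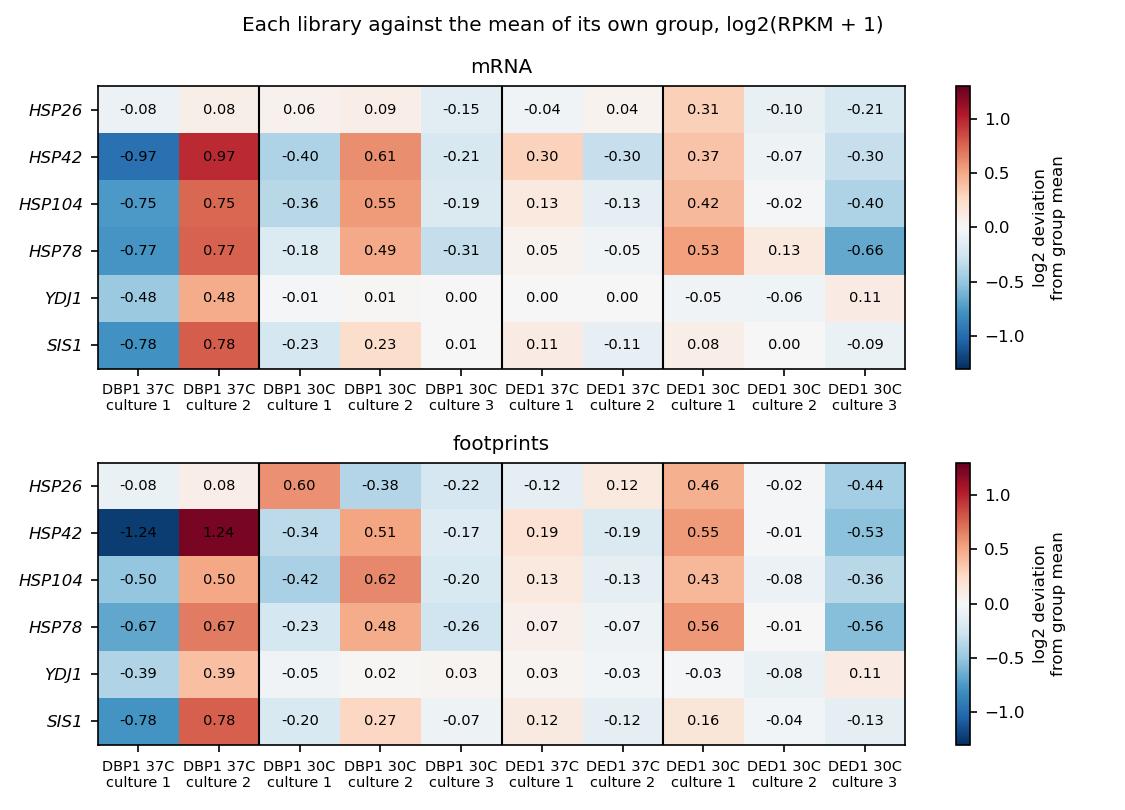
Deviation of each library from the mean of its own group, in log2(RPKM + 1), for mRNA (top) and footprints (bottom), with genes as rows and cultures as columns. The DBP1 37C columns hold the largest deviations, -0.97 and 0.97 for HSP42 mRNA and -1.24 and 1.24 for HSP42 footprints.

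Across the 10 mRNA libraries, which share 2 temperatures and 2 strains, HSP42, HSP104 and HSP78 were most like each other. They had pairwise Pearson correlations of 0.966 to 0.976 in log2(RPKM + 1). YDJ1 was least like the rest, with correlations of 0.427 to 0.591 with all but SIS1, where it was 0.860. Among the 4625 other genes that averaged 20 RPKM or more, those most like HSP104 were SSA1 (0.997), which encodes a cytosolic Hsp70, SSE2 (0.990), a nucleotide exchange factor of Hsp70, and TMA10 (0.989). Those most like HSP42 were MGT1 (0.988), a DNA repair methyltransferase, SSE2 (0.987) and ROQ1 (0.981), and those most like HSP78 were SSE2 (0.984), SIP5 (0.980) and KTR4 (0.974). HSP26 was most like OYE2 (0.989), an NADPH oxidoreductase, SSA4 (0.988), a heat-inducible Hsp70, and BDP1 (0.985), a subunit of an RNA polymerase III initiation factor. BDP1 itself ranged only from 38.1 to 56.4 RPKM, since a correlation takes no account of size. SIS1 was most like CUZ1 (0.983), CUR1 (0.975), a factor that sorts misfolded proteins, and LST8 (0.965), and YDJ1 most like YCR043C (0.920), MTW1 (0.909) and FES1 (0.902), a nucleotide exchange factor of Hsp70. For SIS1, YDJ1, CUR1, LST8 and YCR043C, DBP1 37C culture 1 was the lowest of the 10 libraries and culture 2 the highest. CUR1 was at 82.8 and 201.7 RPKM in these cultures, and LST8 at 94.9 and 169.6 RPKM. Culture 2 was also the highest for CUZ1, MTW1 and FES1, but culture 1 was not their lowest. How far these correlations rest on the gap between these cultures was not tested.

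The partner chaperones gave the setting. Of all genes tested in mRNA, 30.0% rose and 13.1% fell at 37C in DBP1 cells, and 43.1% rose and 10.3% fell in DED1 cells. Of 20 genes of the cytosolic Hsp70 and Hsp90 systems, 13 rose and 2 fell in mRNA at 37C in DBP1 cells, with a median log2 difference of 0.62, and 11 rose and 2 fell in DED1 cells, with a median of 0.66. SSA4 was at 144.3 ± 54.3 RPKM at 37C and 19.7 ± 1.99 RPKM at 30C in DBP1 cells, and at 86.7 ± 2.12 RPKM at 37C and 16.5 ± 1.83 RPKM at 30C in DED1 cells (SD, n = 2 at 37C and 3 at 30C). CPR6, a peptidyl-prolyl isomerase that works with Hsp90, rose by 1.67 ± 0.18 on the log2 scale in DED1 cells (adjusted p = 0.000133). Of 10 aggregate-sorting and stress genes, 6 rose and 2 fell in DBP1 cells, with a median of 0.83, and 7 rose and 1 fell in DED1 cells, with a median of 1.15. UBI4, polyubiquitin, rose by 2.166 ± 0.263 in DED1 cells (adjusted p = 0.000235), and HSP150, a cell wall protein, by 1.26 ± 0.14 (adjusted p = 0.000166). Without DBP1 37C culture 2 the DBP1 medians were 0.46 for the first list and 0.33 for the second, beside 0.14 for all genes. Without culture 1 they were 1.0 and 1.07, beside 0.21. Under median-of-ratios scaling 9 of 20 rose and 2 fell for the first list in DBP1 cells, and 10 rose and 4 fell in DED1 cells. For the second, 4 of 10 rose and 2 fell in DBP1 cells, and 6 rose and 1 fell in DED1 cells. Beside these, 13.1% of all genes rose and 19.2% fell in DBP1 cells, and 17.0% and 21.7% in DED1 cells.

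Other J-proteins and mitochondrial folding factors had medians near those of all genes, and the shares that rose were below or near those of all genes. Of 20 further J-proteins, 3 rose and 2 fell at 37C in DBP1 cells, with a median of 0.18, and 6 rose and 1 fell in DED1 cells, with a median of 0.22. APJ1, a cytosolic J-protein, rose by 0.99 ± 0.21 in DED1 cells (adjusted p = 0.0039), and JJJ2 by 0.62 ± 0.11 (adjusted p = 0.00154). Of 10 genes for folding in the mitochondrial matrix, where Hsp78 works, 2 rose and 1 fell in DBP1 cells, with a median of 0.10, and 4 rose and 1 fell in DED1 cells, with a median of 0.31. Under median-of-ratios scaling the balance of the J-proteins turned, to 0 rising and 5 falling of 20 in DBP1 cells and 2 rising and 5 falling in DED1 cells, and the mitochondrial list had 2 rising and 1 falling of 10 in DBP1 cells and 0 rising and 1 falling in DED1 cells. Of all genes, 13.1% rose and 19.2% fell in DBP1 cells under that scaling, and 17.0% rose and 21.7% fell in DED1 cells. HSP60, the mitochondrial chaperonin, rose by 0.79 ± 0.22 in DED1 cells (adjusted p = 0.0125), while MGE1, the nucleotide exchange factor of the matrix Hsp70, fell by 0.41 on the log2 scale (adjusted p = 0.00573).

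For the swap at 30C, where 8.03% of all genes were called higher, no gene of the Hsp70 and Hsp90 list or the mitochondrial list passed in mRNA, and 1 of 20 J-proteins did, JAC1, a mitochondrial J-protein of iron-sulfur cluster assembly, at 0.42 ± 0.12 (adjusted p = 0.0491), a call lost under median-of-ratios scaling and without either DBP1 37C culture. Among the stress genes 2 of 10 were higher in DBP1 cells, UBI4 by 0.85 ± 0.24 (adjusted p = 0.0495) and HSP12, a membrane-binding stress protein, by 4.15 ± 0.33 (adjusted p = 0.000114), and 1 of 10 was under median-of-ratios scaling. SSE2 and HSP82 had the smallest adjusted p of their list without passing, at 0.73 ± 0.31 (adjusted p = 0.178) and 0.66 ± 0.32 (adjusted p = 0.221). HSP82 and SSA1 have close paralogs, and how the authors treated reads shared between copies is not given in the sources used here. HSP12 did not share the temperature pattern of the 6 genes, with a mean of 6.59 RPKM at 37C and 1051 RPKM at 30C in DBP1 cells.

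The gap between the DBP1 37C cultures reached beyond the 6 genes. In mRNA, 4 of the 6 were at least 2-fold higher in culture 2, against 0.880% of all genes tested. The shares were 6 of 20 for the Hsp70 and Hsp90 list and 4 of 10 for the stress genes. MDJ1, the mitochondrial Hsp40, was the only such gene of the J-protein list and of the mitochondrial list, which both hold it. Between the DED1 37C cultures, 0 genes of any of these lists differed by that much in mRNA, beside 0.312% of all genes higher and 0.752% lower in culture 2. In footprints 1 of 8 stress genes was at least 2-fold higher in DED1 culture 2, beside 0.241% of all genes. For the DBP1 cultures that count was 5 of 8, beside 0.842%. The recovered depth was 8430000 reads for culture 1 and 7450000 reads for culture 2 in mRNA, and 7180000 and 7090000 reads in footprints, and the part of depth in the gap was not tested.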

How the data were processed

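The samples were 20 libraries of SK1 yeast, 10 of polyadenylated RNA and 10 of ribosome footprints of 28 to 31 nt, grouped by the sample labels. The authors deposited 1 table of RPKM values for 6679 genes. Per the submitters' processing notes, CASAVA, bcl2fastq 2.17 and Bowtie2 were used. Which genome build and counting tool made the table, and how shared reads were handled, is not given in the sources used here. In the table's second header line, 2 column names miswrite a digit of the strain number and 1 mRNA column is called a footprint column; the library codes of the first header line, which match the labels, were followed. RPKM does not state depth. It was recovered from the steps between low values with coding lengths shortened by 60 nt, from the RefSeq annotation of S288C, which also gave gene names for 5994 genes. SIS1 needed a length 21 nt longer than in S288C; the values of each member were then whole reads within 0.06 in all 20 libraries.

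The 10 libraries of each assay were fitted with limma 3.58.1 (R 4.3.3) on log2(RPKM + 1), with a mean for each of the 4 groups and eBayes with an intensity trend. The filter on low values, a mean of 5 RPKM or more, left 5454 genes in mRNA and 4986 in footprints. Translation efficiency was tested for 4977 genes as the interaction of assay and group in 1 model of all 20 libraries. Tests were two-sided. A gene was called at a Benjamini-Hochberg adjusted p under 0.05, over every gene tested in that comparison. Folds are those of RPKM + 1 and understate the change of genes near 0. The models were tested on simulated data. The alternatives were pseudocounts of 0.1 and 5, no filter, a filter at 20 RPKM, median-of-ratios scaling, eBayes without a trend, the replicate number or culture as a block, and leaving out each culture.

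For efficiency, the deviations of mRNA and footprint libraries from their group means correlated within each of the 10 cultures (0.24 to 0.655 across genes, which are not independent replicates), so the labels' shared strain, temperature and number were read as 1 culture and blocked values are given where they change a call. The members and the gene lists were chosen with earlier results of these data known. The genes named beside the members were, for each member, the 3 with the highest Pearson correlation, and, for each list, up to 2 with the smallest adjusted p in mRNA for 37C against 30C in DED1 cells and 2 for DBP1 against DED1 cells at 30C; MDJ1 and the genes in the closing section were chosen after their values were seen. Promoter motifs were not analysed here.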

Additional observations from a re-analysis of the deposited data

How the results depend on the processing

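Over 44 values of single genes and 17 alternatives, 683 of 748 values kept their direction and their side of the threshold. The 44 leave out the swap at 37C for every member but HSP26, and most efficiency values. Also left out are the difference between temperature effects for HSP26, YDJ1 and SIS1, and the swap at 30C for YDJ1 and SIS1. Some of these changed direction, such as SIS1 mRNA for the swap at 37C, from -1.075 to 0.49. The share kept does not cover them. Scaling by the median of ratios gave 1 gene in place of 2 for the DBP1 temperature effect in mRNA, and turned YDJ1 mRNA in DED1 cells to -0.093. In all genes it gave 925 higher and 1180 lower at 37C in DED1 mRNA, against 2349 and 560 without it, and 713 and 1049 in DBP1 mRNA, against 1635 and 715. In footprints these were 1001 and 1197 against 1942 and 679 in DED1 cells, and 760 and 1038 against 1059 and 879 in DBP1 cells. It called 163 genes for the difference between temperature effects in mRNA, against 285, and 11 for the swap at 37C in footprints, against 48. That last count was 30 without a filter and 16 without a trend. For efficiency the filter at 20 RPKM called 10 genes in DED1 cells and 21 in DBP1 cells, against 49 and 51, and without a filter 84 were called in DBP1 cells.

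With the culture as a replicate block, efficiency at 37C was called for 1 member in DED1 cells and 3 in DBP1 cells, against 0, and for 334 and 279 of all genes. HSP26 is in both member counts, with the limit given above. The replicate numbers did not pair the strains at 30C, where same-numbered cultures had correlations of -0.06, -0.02 and 0.286 in mRNA and -0.16, 0.07 and 0.359 in footprints. At 37C, with 2 cultures per strain, the same-numbered cultures had 0.361 in mRNA and 0.479 in footprints. A replicate block on the number gave 523 genes in place of 285 for the mRNA difference between temperature effects, and 99 in place of 48 for footprints at 37C. SIS1 in DED1 cells was then at 0.90 in mRNA (adjusted p = 0.0525, limma) and 0.89 in footprints (adjusted p = 0.067).

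Leaving out 1 culture at a time gave 1 to 6 called members for the DBP1 temperature effect in mRNA and 2 to 6 in footprints. The swap at 30C gave 1 to 2 in mRNA and 0 to 2 in footprints, the difference between temperature effects 0 to 4 and 0 to 3, and DBP1 efficiency 0 to 1. The DBP1 temperature effect in mRNA ranged from -0.19 to 1.76 for HSP42, -0.18 to 1.36 for HSP78, -0.21 to 0.75 for YDJ1 and -0.34 to 1.23 for SIS1. In footprints it ranged from -0.34 to 2.13 for HSP42, -0.062 to 1.28 for HSP78 and -0.42 to 1.13 for SIS1. The lowest and highest of these came without DBP1 37C culture 2 and culture 1, and the cause was not tested. Without culture 2, 1355 of all genes were called in mRNA for that effect, against 2350, and 1289 in footprints, against 1938. Counts of all genes ranged from 90 to 330 for the mRNA difference between temperature effects and 205 to 706 in footprints, both lowest without DED1 37C culture 1. They ranged from 268 to 579 for the swap at 30C in mRNA and 336 to 718 in footprints, both lowest without DBP1 30C culture 2. For the swap at 37C they ranged from 2 to 20 in mRNA and 2 to 61 in footprints. Efficiency at 37C ranged from 4 to 38 in DED1 cells and 0 to 56 in DBP1 cells. At 37C a left-out culture leaves 1 library in its group. The depth limits HSP26 footprints at 30C most.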

Other observations

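Among the genes that differed most between the DBP1 37C cultures in both assays, some lay outside the chaperone lists, and all named here were chosen after their values were seen. SER3, an enzyme of serine synthesis, was at 713.9 and 107.3 RPKM of mRNA in DBP1 37C cultures 1 and 2, and ZRT1, a zinc transporter, at 1098 and 219.5 RPKM. Both were also lower in culture 2 of DED1 cells at 37C, SER3 at 1038 and 284.9 RPKM and ZRT1 at 634.7 and 39.1 RPKM. CHA1, a serine and threonine deaminase, was at 13.0 and 132.3 RPKM in the DBP1 cultures and at 11.4 and 23.1 RPKM in the DED1 cultures. BTN2, which sorts misfolded proteins, was at 81.6 and 446.0 RPKM in the DBP1 cultures, whereas in the DED1 cultures it was at 369.9 and 265.6 RPKM. MBF1, a transcriptional coactivator, was at 804.3 and 2068 RPKM in the DBP1 cultures and at 1832 and 1693 RPKM in the DED1 cultures. BTN2 and MBF1 belong to the stress genes counted above. Thus SER3, ZRT1 and CHA1 differed in the same direction between cultures 1 and 2 in both strains, and BTN2 and MBF1 did not. The source of these differences was not tested.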
